A study of Mus musculus with 9 samples.

Results

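The 2′-5′ oligoadenylate synthetases (OAS) and the RIG-I-like receptors, proteins that detect viral RNA inside the cell, were followed in the aging mouse brain. The 10 genes were taken by name from the 49315 genes of the count table, and all 10 were found there: Oas1a, Oas1b, Oas1c, Oas2, Oas3, Oasl1 and Oasl2 of the OAS family, and Ddx58 (RIG-I), Ifih1 (MDA5) and Dhx58 (LGP2) of the receptors. PolyA-selected RNA was sequenced from the whole brain of male wild-type C57BL/6J mice, 5 young (3 months by the labels, 3 or 4 months by the study's methods) and 4 old (33 months), with 1 library per mouse, no treatment and no transgene. Each library is therefore a separate animal, and all comparisons are old against young. Values are CPM, the usual unit for counts relative to the library total, scaled by the TMM method for library size and composition, and fold changes, standard errors and adjusted p-values come from edgeR's quasi-likelihood test over 18492 genes. A gene was called at an adjusted p under 0.05 with an absolute log2 fold change over 0.58. Libraries held 14229259 to 21150439 counts on genes, and mice of the same age varied by a biological coefficient of variation of 6.71%.

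OAS enzymes bind RNA duplexes and then join ATP into short 2′-5′ linked chains, which lead to the cutting of RNA in the cell. RIG-I and MDA5 bind different forms of viral RNA and pass the signal through the mitochondrial adaptor MAVS to the kinase TBK1 and the factors IRF3 and IRF7, which turn on type I interferon. LGP2 binds RNA as well but lacks the domains that signal to MAVS, and it modulates the other two. Interferon acts through its receptor and the transcription factor complex ISGF3, which binds the interferon-stimulated response element (ISRE) in front of responsive genes, and OAS and RIG-I-like receptor genes are textbook members of that class. In the brain, microglia, astrocytes, endothelial cells and neurons can all make them.

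The 7 OAS genes lie in 2 groups on chromosome 5 of GRCm38. Oasl2 (ENSMUSG00000029561, chr5:114896936-114912234) and Oasl1 (ENSMUSG00000041827, chr5:114923240-114937915) lie side by side on the plus strand. The others fall within the Oas1 cluster, on the minus strand except for Oas1b: Oas2 (ENSMUSG00000032690, chr5:120730333-120749853), Oas3 (ENSMUSG00000032661, chr5:120753098-120777661), Oas1c (ENSMUSG00000001166, chr5:120800194-120812514), Oas1b (ENSMUSG00000029605, chr5:120812635-120824163) and Oas1a (ENSMUSG00000052776, chr5:120896256-120907521). Oas1b and Oas1c are divergent neighbours whose starts are 121 bases apart. The receptors are scattered, with Ddx58 (ENSMUSG00000040296) at chr4:40203773-40239828, Ifih1 (ENSMUSG00000026896) at chr2:62595798-62646255 and Dhx58 (ENSMUSG00000017830) at chr11:100694884-100704271, all on the minus strand. GENCODE M21 classes Oas1b as a polymorphic pseudogene, since in many laboratory strains it encodes a truncated protein, and the other members as protein coding.

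Promoter windows, from 250 bases before to 50 bases after the start in RefSeq for GRCm38.p6, were at hand for 7 members (Oas1a, Oas1c, Oas3, Oasl1, Oasl2, Ddx58 and Ifih1). They were searched on both strands for the ISRE core GAAANNGAAA, and 5 of the 7 held it, against 3.443% of all 32851 promoter windows of the same length. The windows of Oasl1 and Oasl2 did not hold these letters. The second motif searched, the gamma-activated site TTCNNNGAA, which does not overlap the first in these windows, was found in Oas1a alone, against 8.298% of all windows. A match is a description of the sequence and shows no binding. The stretches around the ISRE matches are printed with the matched bases in capitals. The core was held by called members (Oas1a, Ddx58 and Ifih1), by Oas3, which had too few counts for the test, and by Oas1c, which was not called. Each stretch is 5′ to 3′ on the strand of the gene and, for the gap between Oas1c and Oas1b, on the strand of Oas1b.
Oas1a, chr5:120907526-120907585, minus strand: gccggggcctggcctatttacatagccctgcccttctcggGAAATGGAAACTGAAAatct
Oas1c to Oas1b, chr5:120812515-120812634, plus strand: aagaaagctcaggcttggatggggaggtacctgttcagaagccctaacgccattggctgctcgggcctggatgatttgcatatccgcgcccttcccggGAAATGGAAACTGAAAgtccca
Oas3, chr5:120777700-120777759, minus strand: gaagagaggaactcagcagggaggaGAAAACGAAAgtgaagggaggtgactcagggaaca
Ddx58, chr4:40239796-40239825, minus strand: agTTTCGATTTCctatggccagccggctag
Ifih1, chr2:62646206-62646235, minus strand: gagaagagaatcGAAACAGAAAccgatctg

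In Oas1a the 16 capitals are 2 overlapping ISRE matches, and they cover the bases from 20 to 5 before the start of the transcript. The same 16 bases stood between Oas1c and Oas1b at chr5:120812613-120812628. Read from Oas1b they cover the bases from 22 to 7 before its start in GENCODE, close to their place in Oas1a. Read from Oas1c they lie on the opposite strand, 99 to 114 bases before its start. The cluster gene Oas1g, which is no member, carries this run too, from 18 to 3 bases before its start. In Oas3 the match began 75 bases before the start. In Ddx58 and Ifih1 it lay within the transcript, at bases 3 to 12 on the opposite strand and at bases 33 to 42.

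**Figure D1:**
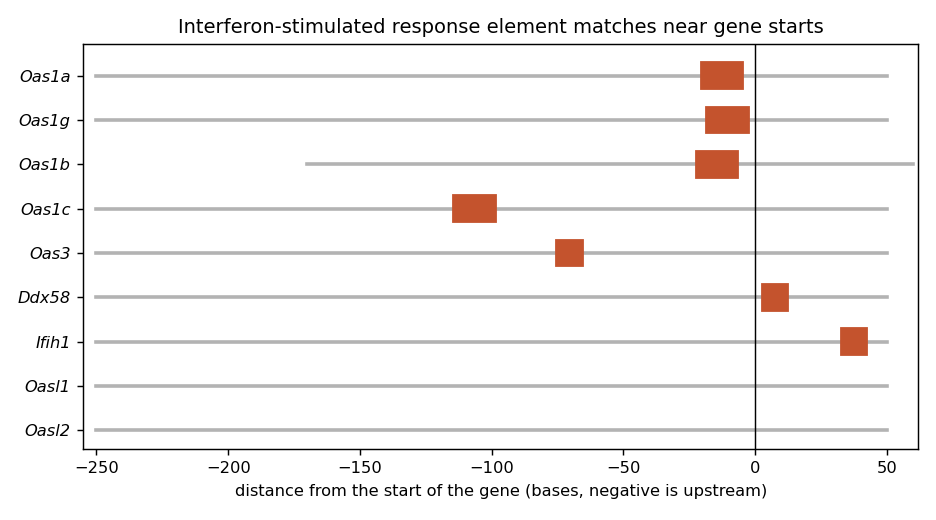
ISRE core matches (boxes) by distance in bases from the start of each gene (vertical line, negative is upstream). Grey lines are the windows searched, and for Oas1b the part of the Oas1c window around its start. Oas1a, Oas1g and Oas1b carry the run within 22 bases upstream of the start, Oas1c carries it 99 to 114 bases upstream, and Oasl1 and Oasl2 have none.

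Most members were higher in old brain. Of the 10 members, 8 passed the filter on low counts and 6 of these were called, all higher: Oas1a, Oas1b, Oas2, Oasl2, Ddx58 and Ifih1. Over all genes tested, 2.13% were called higher and 0.373% lower. Oas1c and Dhx58 were not called, and Oas3 and Oasl1 had too few counts to pass the filter. Oas1a and Oas1b, with 4 to 20 and 5 to 17 counts per young library, passed the filter only through the old libraries. The number of members called and the median of those tested therefore depend in part on their level in old mice. The median log2 fold change of the 8 members tested was 1.21, beside a median of -9.21e-05 over all genes tested. For Oas1a, Oas1b, Oas2, Oasl2, Ddx58 and Ifih1, and for Oas3 below the filter, every old mouse lay above every young mouse, a pattern that 6.5% of all genes tested showed. The members were chosen with earlier results of these data known, so their count is a description.

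**Figure D2:**
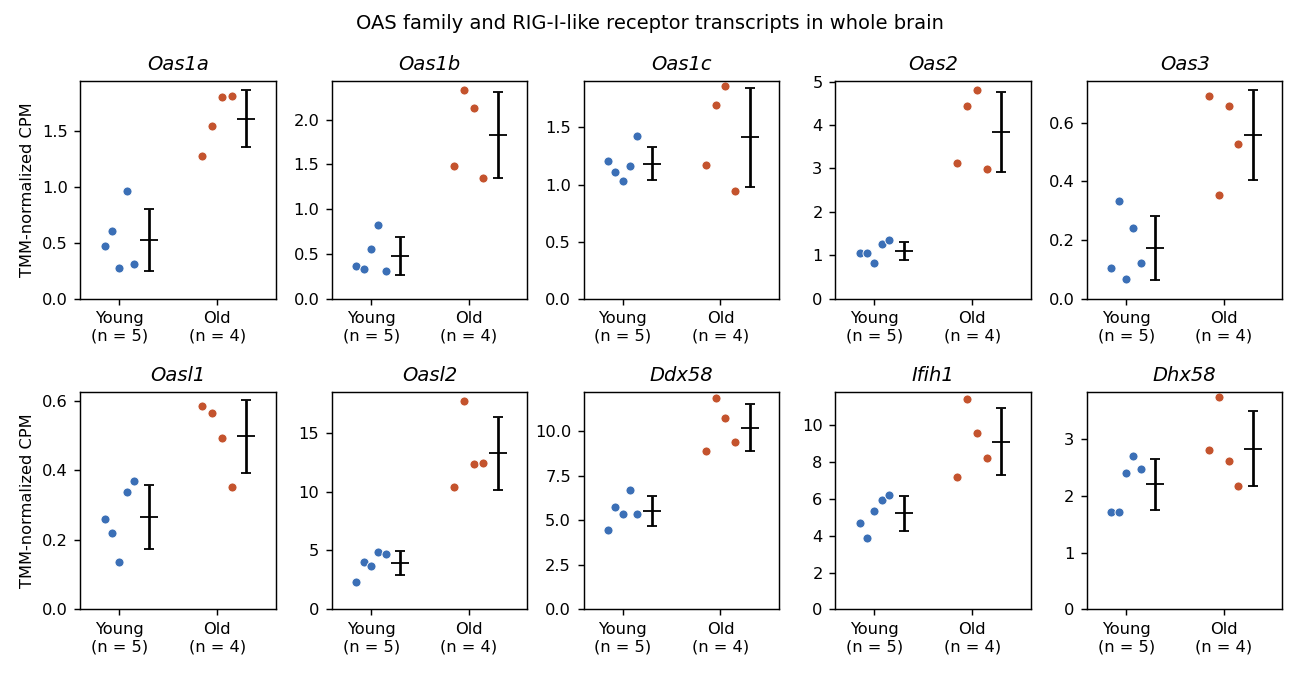
TMM-normalized CPM of each member in every mouse (points, 5 young and 4 old), with the mean and SD of each age in black. Each panel has its own axis from 0. The ages are separate in 7 panels and overlap in those of Oas1c, Oasl1 and Dhx58.

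Oas1a encodes a small synthetase of the family. The young mice stood at 0.470, 0.609, 0.275, 0.966 and 0.309 CPM (replicates 1 to 5) and the old mice at 1.28, 1.55, 1.81 and 1.82 CPM (replicates 1, 3, 4 and 5). Young replicate 4 was highest of the young and still below all old mice. The means were 0.526 ± 0.280 (SD, n = 5) and 1.61 ± 0.257 CPM (SD, n = 4), and the fold change was 2.92 (log2 fold change 1.55, standard error 0.298, edgeR adjusted p = 0.00307). These values rest on 4 to 20 counts per young and 22 to 33 per old library. Of the stretches of 150 bases in Oas1a transcripts, 32.4% also occur in Oas1g. Only uniquely mapped reads were counted, so the level of Oas1a is uncertain.

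Oas1b had the largest log2 fold change of the 8 members tested, at 1.89 (standard error 0.295, edgeR adjusted p = 0.000626). Its CPM was 0.366, 0.332, 0.550, 0.821 and 0.309 in young mice and 1.49, 2.33, 2.13 and 1.35 in old mice. The means were 0.476 ± 0.215 (SD, n = 5) and 1.83 ± 0.479 CPM (SD, n = 4). They rest on 5 to 17 counts per young and 23 to 39 per old library. No stretch of 150 bases of its transcripts occurs in another gene.

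Its divergent neighbour Oas1c was not called. The young mice lay at 1.20, 1.11, 1.03, 1.16 and 1.42 CPM and the old at 1.17, 1.69, 1.86 and 0.939 CPM, so that old replicate 5 was below all young mice and old replicates 3 and 4 above them. The log2 fold change was 0.25 (standard error 0.232, edgeR adjusted p = 0.547). Within each library, the log2 ratio of Oas1b to Oas1c counts was -1.65, -1.66, -0.867, -0.485 and -2.10 in young mice and 0.341, 0.451, 0.195 and 0.510 in old mice. Oas1c was thus the more abundant by counts in all 5 young brains, and Oas1b in all 4 old brains. This pair was chosen after its values were seen, and its difference is given without a test. Oas1c shares 227 exon bases with the antisense gene Gm43069, which had at most 1 count in a library.

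Oas2 encodes a larger synthetase with a repeated catalytic unit. It was at 1.05, 1.05, 0.825, 1.26 and 1.36 CPM in young mice and 3.13, 4.44, 4.82 and 2.99 CPM in old mice. The lowest old mouse was above the highest young one by a wide margin compared with the SDs of 0.208 and 0.918 CPM. The log2 fold change was 1.78 (standard error 0.200, edgeR adjusted p = 3.8e-05), the smallest adjusted p of the members.

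Oas3, the largest synthetase, with 3 repeats of the unit, was near the limit of what these libraries can measure. The young libraries held 2, 6, 1, 5 and 2 counts and the old 13, 5, 12 and 9. Scaled to library size, the old mice ranged from 0.353 to 0.691 CPM and the young from 0.0687 to 0.332 CPM, without overlap. In a fit without the filter, over 35028 genes, its log2 fold change was 1.61 (standard error 0.469, edgeR adjusted p = 0.0112). That fit gave far smaller adjusted p-values for some genes with more counts. For Oas2 edgeR's test gave 2.56e-15 there and 3.8e-05 with the filter, so adjusted p-values with and without the filter are not comparable.

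The OAS-like genes encode proteins with ubiquitin-like domains. Oasl2 was the most abundant OAS family gene by CPM at both ages, at 2.35, 4.04, 3.71, 4.88 and 4.70 CPM in young mice and 10.4, 17.7, 12.4 and 12.4 CPM in old mice. Its log2 fold change was 1.74 (standard error 0.199, edgeR adjusted p = 0.000317), a 3.34-fold difference. Its promoter window held no ISRE core. Oasl1 had 2 to 7 counts per young and 6 to 11 per old library, at 0.266 ± 0.0931 (SD, n = 5) and 0.498 ± 0.105 CPM (SD, n = 4). The ages overlapped by 1 mouse each, since old replicate 5, at 0.352 CPM, was below young replicate 5, at 0.371 CPM. Without the filter the log2 fold change of Oasl1 was 0.86 (standard error 0.444, edgeR adjusted p = 0.293), and it shares 38 exon bases with the antisense gene Gm13822, which had at most 2 counts.

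The receptors that signal were called with log2 fold changes below those of the called OAS genes, which ran from 1.55 to 1.89, and this difference between the families was not tested. Ddx58 was at 4.44, 5.75, 5.36, 6.71 and 5.37 CPM in young mice and 8.87, 11.9, 10.7 and 9.39 CPM in old mice, a log2 fold change of 0.88 (standard error 0.121, edgeR adjusted p = 0.000234). Every old mouse was above every young one. Ifih1 was at 4.70, 3.87, 5.36, 5.94 and 6.18 CPM in young mice and 7.17, 11.4, 9.58 and 8.22 CPM in old mice, a log2 fold change of 0.80 (standard error 0.15, edgeR adjusted p = 0.00305). On the TPM scale, where the median of all genes shifted by -0.142 with a pseudocount of 1, limma gave Ddx58 a log2 fold change of 0.52 (adjusted p = 0.0465), under the threshold of 0.58, and Ifih1 one of 0.42 (adjusted p = 0.13). With a pseudocount of 0.1 the adjusted p was 0.0598 and 0.165, with log2 fold changes of 0.70 and 0.61, so neither was called on either TPM scale.

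Dhx58, the receptor without signalling domains, was not called. It was at 1.73, 1.72, 2.41, 2.71 and 2.47 CPM in young mice and 2.82, 3.74, 2.63 and 2.17 CPM in old mice, and the ages overlapped. The log2 fold change was 0.36 (standard error 0.194, edgeR adjusted p = 0.269). It shares 141 exon bases with the antisense gene Dhx58os, which had 8 to 19 counts in young and 5 to 14 in old libraries, and the sources used here do not say whether these counts were made by strand.

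Whether members changed by different amounts was tested on ratios of counts within a library, which need no scaling between libraries. Of 7 listed pairs, 4 had both genes over the filter, and none of the 4 passed after adjustment (exact permutation test over all splits of the mice, two-sided), while 2 had an unadjusted p under 0.05. The log2 ratio of Ddx58 to Dhx58 was 1.33 ± 0.247 in young (SD, n = 5) and 1.85 ± 0.237 in old brains (SD, n = 4), a difference of 0.526 (exact permutation p = 0.0317, adjusted p = 0.0635). That of Ifih1 to Dhx58 was 1.24 ± 0.132 in young mice and 1.68 ± 0.260 in old mice (exact permutation p = 0.0238, adjusted p = 0.0635). Ddx58 to Ifih1 differed by 0.086 between the ages (exact permutation p = 0.627, adjusted p = 0.836) and Oas1a to Oas2 by -0.0723 (p = 0.841, adjusted p = 0.841). Among the pairs given without a test, the ratio of Oasl1 to Oasl2 was lower in old mice by 0.879 on the log2 scale, and those of Oas2 to Oas3 and Oas1a to Oas3 were higher by 0.109 and 0.037.

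The order of the members by level, in CPM per kilobase of exon, differed in description between the ages. In the young mice Ddx58 was highest (0.784 ± 0.116, SD, n = 5), followed by Dhx58 (0.674), Ifih1 (0.638), Oasl2 (0.617), Oas1c (0.492), Oas1a (0.279), Oas2 (0.249), Oas1b (0.239), Oasl1 (0.102) and Oas3 (0.0246). In the old mice Oasl2 was highest (2.08 ± 0.490, SD, n = 4), followed by Ddx58 (1.45), Ifih1 (1.11), Oas1b (0.916), Dhx58 (0.867), Oas2 (0.864), Oas1a (0.856), Oas1c (0.588), Oasl1 (0.191) and Oas3 (0.0788). Neighbours in these orders overlapped in range except for Oas1b and Oasl1 in the young, Oas1c and Oasl1 in the old, and Oasl1 and Oas3 at both ages. Oas1c was therefore 5th in young mice and 8th in old mice, and Oas1b moved from 8th to 4th.

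The mice of one age did not share a single level. The summed CPM of the 10 members was 16.7, 19.0, 19.7, 25.0 and 22.6 in young mice and 37.6, 55.6, 47.1 and 40.2 in old mice. Among the young, replicate 4 was highest for 5 members and replicate 5 for 4. Among the old, replicate 3 was highest for 5 members and replicate 5 lowest for 5. Without young replicate 4, the log2 fold change was 1.90 for Oas1a, 2.22 for Oas1b and 0.45 for Dhx58. The log2 fold change of Dhx58 was 0.21 without old replicate 3, and that of Oas1c was 0.08 without old replicate 4 and 0.40 without old replicate 5. With any single mouse left out, 6 members were called, and neither Dhx58 nor Oas1c was among them.

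**Figure D3:**
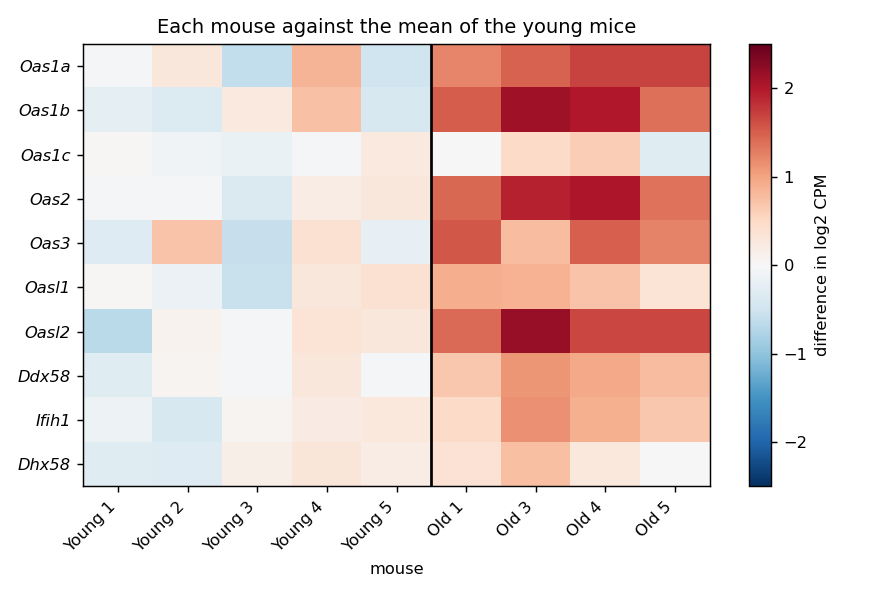
Difference of each mouse (columns) from the mean of the young mice in log2 CPM (colour) for the 10 members (rows). The vertical line parts the young from the old mice. Oas1a, Oas1b, Oas2 and Oasl2 are among the deepest red in old mice, and Oas1c and Dhx58 are pale.

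The 5 genes whose deviations from the mean of their age followed the mean of the tested members most closely over the 9 libraries were Ddx59 (r = 0.982), Trim25 (0.948), Trim30a (0.943), Lgals3bp (0.938) and Dpy19l4 (0.933). These r values were the highest of 14499 genes over points that share their libraries, and they are a description. The log2 fold change with age was 1.24 for Trim30a and 1.44 for Lgals3bp, but 0.02 for Ddx59 and 0.02 for Dpy19l4.

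RNA from a whole brain cannot tell more cells of a type from more RNA per cell. The summed CPM of 10 microglia markers (such as P2ry12, Tmem119 and C1qa) was 283 to 312 in 4 young mice, 446.9 in young replicate 4 and 462.6 to 508.2 in old mice, and 3 of the 10 passed an adjusted p under 0.05, all higher. The log2 ratio of the mean sums was 0.557, young replicate 4 included. The 8 endothelial markers summed to 269.6 to 287.8 CPM in young mice and 308.7 to 351.7 CPM in old mice, with 5 higher. Of the 6 erythrocyte markers 3 were higher, with sums of 86.9 to 117 CPM in young mice and 129 to 424 CPM in old mice, and the sum of 8 monocyte and neutrophil markers was 1.52 to 2.27 CPM in young mice and 3.39 to 86.5 CPM in the old. Old replicate 4 was highest for both of these lists. Neuron markers were lower for 3 of 8 (5812 to 6022 CPM in the old, 6037 to 6380 CPM in the young), and 0 of 8 astrocyte markers passed. Over all genes tested, 6.09% passed higher and 4.89% lower at an adjusted p under 0.05, and 0 of 8 lies near these shares. All defining markers of neurons, astrocytes, oligodendrocytes and microglia were detected in the tissue labelled whole brain. Without old replicate 4, and without young replicate 4, 6 members were called, as with any other mouse left out. The part of these cell types in the members' difference was not tested.

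A further list covered the pathway of the 2′-5′ linked chains made by the synthetases. Of the 5 genes listed for the pathway of these chains (2-5A), which include Abce1 and the 2-5A degrading enzyme Pde12, 0 passed the adjusted p of 0.05 of edgeR's test, and 1, Abce1, had an unadjusted p under 0.05 (0.0401), with a log2 fold change of -0.09. Over all genes tested, 6.09% passed higher and 4.89% lower at this threshold, and 2031 passed in either direction. With so few genes, 0 of 5 lies near these shares.

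Of the other genes of the Oas1 cluster (Oas1d, Oas1e, Oas1f, Oas1g and Oas1h), 0 of 5 passed the filter. Oas1g, a close copy of Oas1a, had 1 or 2 counts in each young library and 5 to 13 in each old one. Without the filter its log2 fold change was 2.72 (standard error 0.598, edgeR adjusted p = 0.000214). This adjusted p, like that of Oas3 without the filter, is not comparable with those of the filtered fit. Of its transcript stretches of 150 bases, 24.1% occur in Oas1a. The remaining cluster genes had at most 2 counts in any library.

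Of 25 tested regulators of the receptors, 6 were higher and 2 lower at an adjusted p under 0.05, and the median log2 fold change was 0.05. The shares over all genes tested were 6.09% and 4.89%. Zc3hav1, the antiviral protein ZAP, rose from 8.94 ± 1.29 to 18.0 ± 2.18 CPM (log2 fold change 1.0, standard error 0.104, edgeR adjusted p = 2.3e-05), and Isg15, an interferon-induced modifier related to ubiquitin, by 1.08 on the log2 scale. Dapk1 and Ppp1cc, a kinase and a phosphatase, were higher by 0.29 and 0.21. The ubiquitin ligase Rnf122 fell by 0.60 and the 14-3-3 protein Ywhah by 0.21. Trim14 and Rnf125 had log2 fold changes of 0.95 and 0.74, but Trim14 lost its call without young replicates 1 or 3 or old replicates 3, 4 or 5 (adjusted p up to 0.0662), and Rnf125 with any mouse left out except old replicates 1 and 5 (up to 0.156). Rnf125 also did not pass without the robust option of the fit (edgeR adjusted p = 0.0562) or with the replicate number as a block (0.109). Trim25, the ligase that activates RIG-I, had a log2 fold change of 0.35 (edgeR adjusted p = 0.0577). It passed without young replicate 4 (0.0299) and without old replicate 1 (0.0173). It also passed without the filter (0.0126), but adjusted p-values of that fit are not comparable with those of the filtered fit.

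Of 30 tested genes of the signalling chain below the receptors, 2 were higher and 1 lower, near the shares of 6.09% and 4.89% over all genes, with a median log2 fold change of 0.04. The adaptor Mavs was at 9.41 ± 0.771 CPM in young mice and 9.90 ± 1.23 CPM in old mice (log2 fold change 0.07, edgeR adjusted p = 0.701). In the same test the log2 fold change was 0.07 for the kinase Tbk1 (adjusted p = 0.37) and 0.05 for Irf3 (adjusted p = 0.717), and all 3 estimates turned negative on the TPM scale. Irf7, itself an interferon-induced gene, rose from 1.95 ± 0.488 to 8.24 ± 4.09 CPM, a log2 fold change of 2.06 (standard error 0.345, edgeR adjusted p = 0.00603). Nfkbia rose by 0.35 on the log2 scale. Traf3 fell by 0.20 but did not pass an adjusted p under 0.05 without old replicate 1 (adjusted p = 0.0501).

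Among 23 other listed proteins that bind or edit RNA, 6 were higher and 1 lower, with a median log2 fold change of 0.04. The shares over all genes tested were 6.09% and 4.89%. Ifit1, which binds the 5′ end of viral RNA, rose by a log2 fold change of 1.78 (with a standard error of 0.185, edgeR adjusted p = 3.7e-05), Ddx60 by 1.48 and Zbp1, a sensor of Z-form RNA and DNA, by 1.90. Zbp1 rests on 1 to 8 counts per young and 13 to 24 per old library, and it passed the filter only through the old libraries. The kinase PKR (Eif2ak2) rose from 8.23 ± 0.685 to 13.3 ± 2.63 CPM, a log2 fold change of 0.68 (standard error 0.114, edgeR adjusted p = 0.00108). The editing enzyme Adar was at 190 CPM at both ages (log2 fold change 8e-05, standard error 0.0323), and Tlr3, the endosomal RNA receptor, had a log2 fold change of 0.19 (edgeR adjusted p = 0.281). Samhd1 (0.21) passed as well, but did not without young replicate 5 or old replicate 4 (adjusted p up to 0.0664). Stau2 fell by 0.16 on the log2 scale.

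Of 15 genes of the interferon receptors and ISGF3, 5 were higher and 1 lower, with a median log2 fold change of 0.18. The shares over all genes tested were 6.09% and 4.89%. Irf9 rose by 0.36 on the log2 scale, while Stat2 had a log2 fold change of 0.18 (edgeR adjusted p = 0.071). Usp18 and Socs3, feedback inhibitors of cytokine receptors, rose by 1.42 and 0.72. The receptor chains Ifnar1 (log2 fold change -0.03, edgeR adjusted p = 0.749) and Ifnar2 (0.04, adjusted p = 0.778) did not pass. Of the interferon gamma receptor chains, Ifngr1 had a log2 fold change of 0.35 and Ifngr2 one of -0.22. Both passed an adjusted p under 0.05. Ifngr1 did not without young replicates 1, 3 or 5 or old replicates 4 or 5 (adjusted p up to 0.0795), and Ifngr2 did not without old replicate 5 (0.0718).

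Interferon transcripts themselves were not measurable at this depth. Of 21 interferon genes, 0 passed the filter and 16 had no count in any library, Ifnb1 among them. The 21 genes together had 9 counts in the 5 young and 7 in the 4 old libraries, with at most 2 for a gene in a library.

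**Figure D4:**
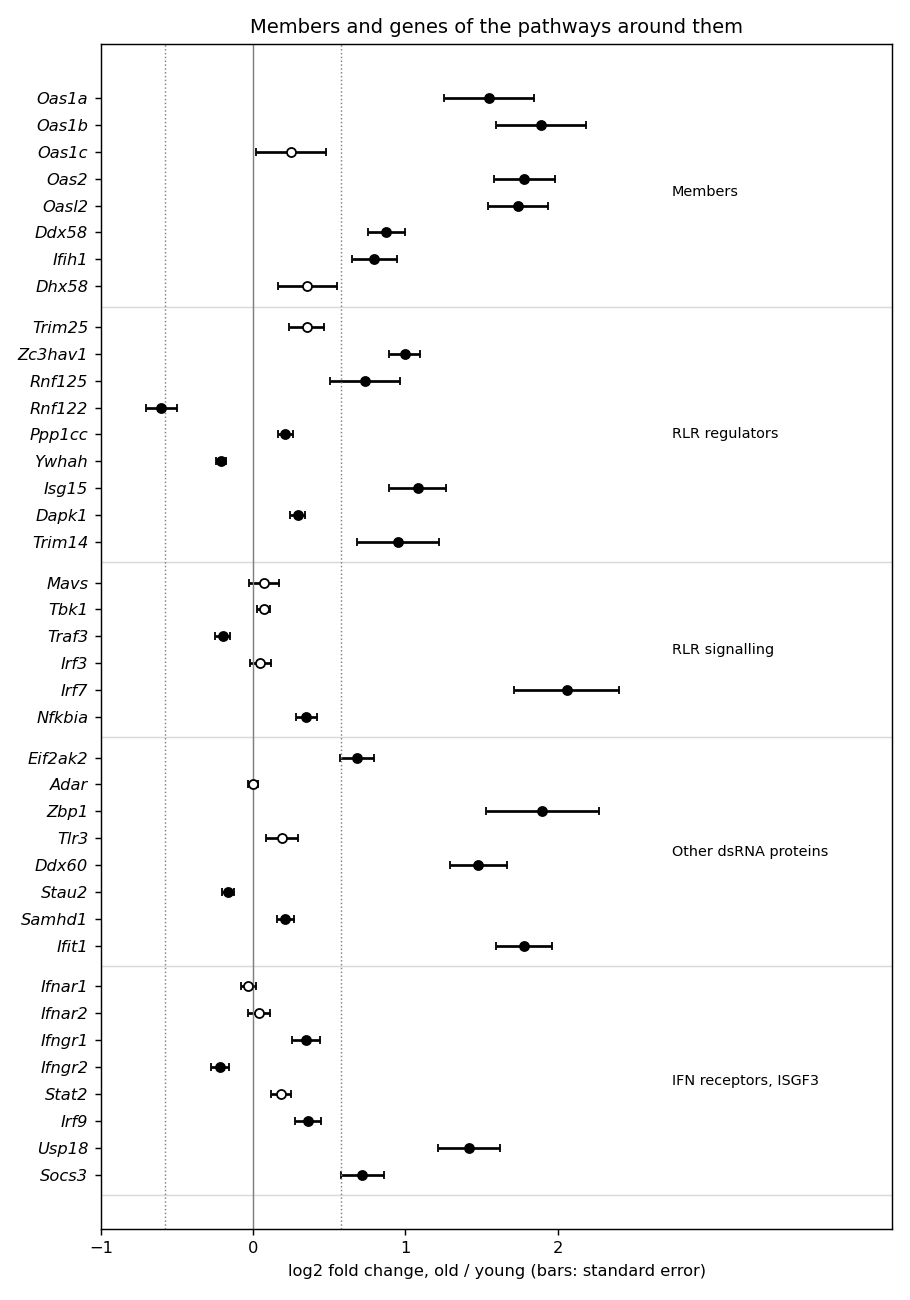
Log2 fold change of old against young mice with its standard error for the 8 tested members and 31 genes of the pathways around them (rows). Filled points have an adjusted p under 0.05, and dotted lines mark 0.58 in each direction. The called members, Irf7, Ifit1, Ddx60, Zbp1 and Usp18 lie to the right, and Mavs, Tbk1, Irf3, Adar and the Ifnar chains lie near 0.

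Over the 98 tested genes of these lists, 19 were higher and 5 lower at an adjusted p under 0.05, and 11 and 1 were called with the fold change threshold. The shares over all genes tested were 6.09% and 4.89%, and 2.13% and 0.373% with the fold change threshold. With limma on log2(TPM + 1) 8 of the list genes passed, and 7 on log2(TPM + 0.1). Zc3hav1, Isg15, Irf7, Ifit1, Ddx60, Zbp1 and Usp18 passed on both scales, and Rnf122 on the former. Of the 19, 13 had a promoter window in the RefSeq table and 4 of these held the ISRE core (30.8%), beside 4 of 66 (6.06%) among the other genes of the lists. Over all genes tested, the core was present in 17.0% of the 271 windows of genes called higher, in 4.65% of the 43 of genes called lower and in 3.3% of the rest. Named genes of the lists with the core were Isg15, Ifit1, Ddx60, Eif2ak2 and Stat2, and Irf7, Irf9, Zc3hav1 and Trim25 were among those without it. These shares are descriptions, given without a test, and they show no binding.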

How the data were processed

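Whole brains of 5 young and 4 old mice were analysed. The authors had trimmed the reads with Trimmomatic, aligned them to GRCm38 with STAR and used featureCounts for the reads that mapped uniquely to exons. These raw counts were deposited, and each library's total sets its precision. The authors also deposited a normalized signal for 17994 genes (counts divided by 1 size factor per library) and TPM values, both used only as alternatives. Per the labels, DESeq2 and the build mm10 were used. Each table held 1 more column, labelled as an old replicate, that matched no sample and was not used. The study reports 5 mice per age. GENCODE M21 named 48970 gene IDs and not 345.

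Genes passed filterByExpr (minimum count 10, minimum total 15), were scaled by TMM and tested with edgeR 4.0.16 in R 4.3.3 (robust quasi-likelihood fit, Benjamini-Hochberg adjustment), with log2 CPM at a prior count of 2. DESeq2 1.42.0 and limma 3.58.1 served the alternatives. Ratios within a library used a pseudocount of 0.5 and an exact permutation test whose smallest p is 0.00794. The fit was tested on simulated data. Libraries of the same age differed by more than sampling noise (chi-square per degree of freedom at least 4.04). The members and lists were chosen with earlier results of these data known. The named genes were all members, up to 6 genes per list and direction with an adjusted p under 0.05, 16 genes of the pathway in any case, and the 5 genes most like the members. A few of these are not reported here.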

Additional observations from a re-analysis of the deposited data

Results flagged for a closer look

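In each age, a gene was looked at for 1 mouse far from the others, by the gap between this mouse and its nearest neighbour as a share of the whole range in log2 CPM. No member met the limit (Dixon's critical value at 95%). Of 82 combinations of gene and age, 5 exceeded it, where chance flags about 1 in 20 (4.1). Rnf125 was at 0.885 CPM in young replicate 2 against 1.45 to 1.72 in the other young mice (share 0.734). Irf7 was at 1.15 CPM in young replicate 1 against 1.99 to 2.46 (0.716), and Usp18 in the same mouse at 0.679 CPM against 1.37 to 1.69 (0.766). Eif2ak2 was at 7.03 CPM in young replicate 2 against 8.38 to 8.74 (0.808). Ifnar1 was at 41.4 CPM in young replicate 3 against 46.0 to 47.5 (0.773).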

How the results depend on the processing

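In place of 463 genes (394 higher, 69 lower), 707 were called without the filter on low counts, 2031 when only the adjusted p under 0.05 was asked for and 256 at an adjusted p under 0.01. With each mouse left out in turn, 379 to 592 genes were called, and 495 without the robust option of the fit, which was added after the data were seen. The split was 217 higher and 163 lower with limma on log2(TPM + 1) and 299 and 264 on log2(TPM + 0.1), where the median log2 fold change of all genes was -0.142 and -0.162. The number of members called was 6 under all alternatives except for 7 without the filter, where Oas3 passed, and 4 on both TPM scales, where Ddx58 and Ifih1 each missed a threshold. On these scales 8 and 7 genes of the pathway lists passed an adjusted p under 0.05, in place of 24. The number of pairs that passed was 0 under all alternatives. With a mouse left out, so few splits remain that no pair could pass alone after adjustment. These counts therefore say little about stability. Some estimates near 0 changed sign. On log2(TPM + 1) and log2(TPM + 0.1) these were Mavs (-0.0841 and -0.0945), Tbk1 (-0.0946 and -0.0967), Irf3 (-0.117 and -0.123), Ifnar2 (-0.113 and -0.121) and Adar (-0.162 and -0.164). Adar also did so with DESeq2 size factors (-0.0016), upper quartile factors (-0.00337), no filter (-0.0103), a minimum of 1 CPM in 4 libraries (-0.000402), the DESeq2 Wald test (-0.00193) and the authors' normalized counts (-0.00182), and ranged from -0.00566 to 0.0134 with a mouse left out. The cause was not tested. With the replicate number as a block, Ifnar2 was at -0.000619, and 437 genes, 6 members, 21 pathway genes and 0 pairs passed. The pairs could not pass there, since the smallest p of the paired permutation is 0.125. The numbers do not pair the mice, since same-numbered mice had correlations of their deviations of 0.17, -0.118, 0.088 and -0.024, and only old replicate 1 correlated best with its own number. Depth limits Oas3, Oasl1, the Oas1 cluster and the interferon genes.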
